A study of Mus musculus with 9 samples.

Results

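The genes described here are Wdr92 and the 4 genes for the subunits of the R2TP co-chaperone complex, Ruvbl1, Ruvbl2, Pih1d1 and Rpap3, in mouse hearts. The members were given by symbol, and all 5 were found in both deposited tables, among 23457 rows of read counts and 23369 rows of FPKM values. All 5 passed the expression filter, which left 12640 genes. The set was proposed with the difference between genotypes already known, so the count and FPKM values by which the groups differ chose it. Those values are given below as a description, without a p-value.

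R2TP is a co-chaperone of HSP90. The related AAA+ ATPases RUVBL1 and RUVBL2 form rings, PIH1D1 recognises client adaptors that carry a phosphorylated motif, and RPAP3 tethers HSP90 and HSP70 through its TPR domains. The complex helps to assemble kinases of the PIKK family such as mTOR and ATR, RNA polymerase II, small nucleolar ribonucleoproteins and spliceosomal particles. WDR92, a WD-repeat protein also called Monad or DNAAF10, binds the complex together with the prefoldin-like proteins URI1, UXT and PDRG1, and it is known for its part in the cytoplasmic assembly of axonemal dyneins in ciliated cells.

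Each library held polyadenylated RNA from the ventricular apex of 1 adult heart, although the tissue label reads whole heart. The groups were 5 wild-type mice (WT) and 4 mice labelled as germline knockouts of Parkin (KO), a ubiquitin ligase that marks damaged mitochondria, all on the C57BL/6J background. The allele and the sex were not given in the sources used here, and directions below rest on the labels. The libraries were single-end and did not keep strand, so reads of overlapping or antisense genes cannot be told apart. The question of the comparison, in a study that otherwise used Drosophila, is how loss of Parkin relates to the cardiac transcriptome.

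Between 4415183 and 20827699 reads were assigned to genes in each heart, and WT hearts 2 and 3 were the shallowest. Read levels are given as CPM, read counts over the library size scaled by TMM factors in the usual CPM unit, and levels per transcript length as FPKM. The TMM factors ran from 0.653 to 1.072 in WT and from 1.202 to 1.346 in KO hearts. Differences between the groups were spread over the whole transcriptome: 51.4% of 12640 tested genes passed the edgeR test, 26.2% higher and 25.2% lower in KO. Across genes, which are not independent replicates, the fold change followed the GC content of the transcript (Spearman rho 0.61), with a median log2 fold change of -0.59 in the 25% of genes lowest in GC and 0.59 in the 25% highest. Values with GC and length trends removed are therefore given beside the members' values. Markers of heart muscle cells, shared by atrium and ventricle, were abundant, at a summed 48600 to 53100 CPM in WT and 61000 to 70200 CPM in KO hearts over 6 genes, of which 2 rose and 1 fell. Foxj1, which defines motile ciliated cells, had 0 reads, and the 5 ciliated-cell markers together gave 1.39 to 4.44 CPM in WT and 0.998 to 2.36 CPM in KO hearts, with the 1 tested marker lower.

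Wdr92 lies on the plus strand of chromosome 11 in GRCm38, where RefSeq places it at 17211893 to 17235200. Pno1, which encodes a factor of small ribosomal subunit maturation, lies head to head with it at 17203198 to 17211589 on the minus strand, and 303 bases separate the RefSeq starts of the pair. The 250 bases upstream of both genes are shown because the 2 windows share 197 bases, read on opposite strands, while the fold changes of the genes differ. The capitals mark the shared stretch. The sequences are RefSeq's on GRCm38.p6, at chr11:17211643-17211892 (plus strand) for Wdr92 and chr11:17211590-17211839 (minus strand) for Pno1.
Wdr92: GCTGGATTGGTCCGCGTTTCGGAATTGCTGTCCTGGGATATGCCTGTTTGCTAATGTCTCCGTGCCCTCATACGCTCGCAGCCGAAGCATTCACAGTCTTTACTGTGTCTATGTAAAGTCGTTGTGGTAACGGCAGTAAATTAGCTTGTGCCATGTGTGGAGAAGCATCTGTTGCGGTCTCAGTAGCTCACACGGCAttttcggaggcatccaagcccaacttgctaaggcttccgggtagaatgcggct
Pno1: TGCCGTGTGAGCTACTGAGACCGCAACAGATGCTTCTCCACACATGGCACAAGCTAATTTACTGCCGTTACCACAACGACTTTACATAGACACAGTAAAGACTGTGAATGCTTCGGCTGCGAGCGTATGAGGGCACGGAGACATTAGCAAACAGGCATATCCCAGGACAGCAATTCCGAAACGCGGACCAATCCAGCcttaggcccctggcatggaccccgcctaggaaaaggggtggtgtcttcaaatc
The shared stretch holds a CCAAT box, which reads ATTGG on the Wdr92 strand and CCAAT on the Pno1 strand. For comparison, the window of Ruvbl1 at chr6:88465159-88465408 (plus strand) holds 2 CCAAT boxes, marked here in capitals.
Ruvbl1: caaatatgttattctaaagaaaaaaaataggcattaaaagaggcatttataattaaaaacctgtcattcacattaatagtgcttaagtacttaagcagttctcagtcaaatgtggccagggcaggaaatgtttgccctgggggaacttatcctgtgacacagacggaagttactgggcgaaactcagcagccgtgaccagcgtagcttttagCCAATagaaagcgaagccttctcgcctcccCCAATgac
Ruvbl2 also had 2 such boxes, counting both strands, and Pih1d1 and Rpap3 had none. CCAAT occurs on either strand in 33.8% of 32851 upstream windows of that length. The GC box GGGCGG, present in 32.7% of windows, was found 2 times for Ruvbl2 and 3 times for Pih1d1 and in no other member. The TATA box TATAAA, present in 12.4%, was found once, for Ruvbl1. None of the 5 windows held the E-box CACGTG (6.02% of windows). No motif of the 4 searched was shared by all 5 members, and none of the 4 contains another. The windows of Ruvbl2 and Pih1d1 lie inside the RefSeq spans of their genes, so they do not precede every annotated start.

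Wdr92 was the member that stood apart. It had 6134, 452, 898, 6885 and 2716 reads in WT hearts 1 to 5 and 265, 482, 534 and 446 reads in KO hearts 1 to 4. Relative to library size this was 275, 157, 266, 484 and 315 CPM in WT against 12.6, 29.0, 27.0 and 31.9 CPM in KO. The lowest WT heart, the shallow WT heart 2, was above the highest KO heart, and KO heart 1 was the lowest of the 9. The mean was 299 ± 119 CPM in WT (SD, n = 5) and 25.1 ± 8.61 CPM in KO (SD, n = 4), a log2 fold change of -3.58 ± 0.32 (SE), or 12.0-fold lower. With GC and length trends removed it was -3.24 ± 0.33, and the transcript holds 46.4% GC. In the deposited FPKM values Wdr92 stood at 90.1, 31.0, 58.4, 147 and 73.9 in WT hearts and at 5.20, 11.4, 10.9 and 11.8 in KO hearts, again without overlap, and the difference was -2.79 ± 0.39 on the log2(FPKM + 1) scale. By mean FPKM the transcript ranked 573rd of 23369 rows in WT and 4754th in KO hearts.

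The fall of Wdr92 ranked 9th in size among the 12640 tested genes, and 13th with the trends removed. The 8 genes with larger falls were all of low abundance, with WT means of at most 18.7 CPM. Among the 1000 genes with a WT mean of at least 100 CPM, a limit chosen after the values were seen, Wdr92 fell most and Polr2a, the large subunit of RNA polymerase II, came next. With the trends removed that order turned, with Polr2a at -3.46 and Wdr92 at -3.24. Within groups the coefficient of variation of Wdr92 was 39.6% in WT and 34.2% in KO hearts, above those of the 4 partners, which ran from 9.01% to 26.9%.

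**Figure D1:**
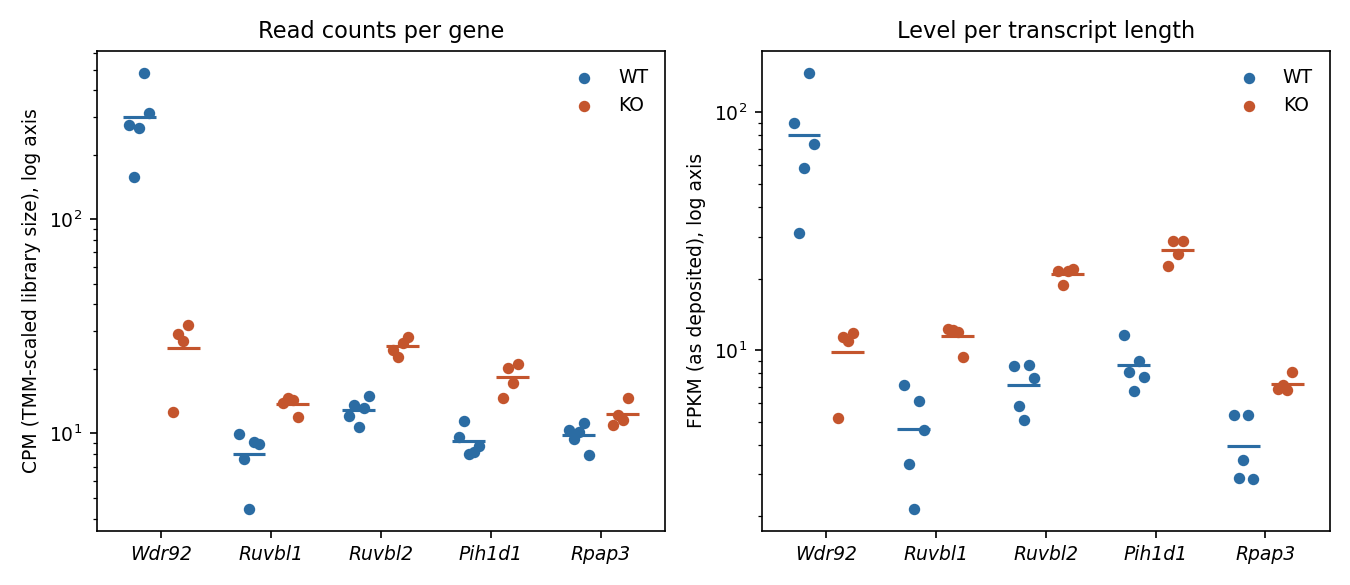
Each point is 1 heart, as CPM (left) and FPKM (right) on log axes, with the 5 WT hearts in blue and the 4 KO hearts in orange, and lines mark group means. Wdr92 lies at 157 to 484 CPM in WT and 12.6 to 31.9 CPM in KO hearts, while Ruvbl1, Ruvbl2 and Pih1d1 lie higher in every KO heart than in any WT heart on both scales.

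The ATPases differed in the opposite direction. Ruvbl1 (chromosome 6, 88465409 to 88497572, plus strand) stood at 9.91, 7.63, 4.44, 9.13 and 8.94 CPM in WT and at 13.8, 14.6, 14.3 and 11.9 CPM in KO hearts. Every KO heart was above every WT heart, and the lowest value was that of the shallow WT heart 3, which had 15 reads. The log2 fold change was 0.70 ± 0.18, and 0.48 ± 0.16 with the trends removed. Ruvbl2 (chromosome 7, 45421760 to 45438096, minus strand) had 12.1, 13.5, 10.7, 13.1 and 15 CPM in WT and 24.6, 22.8, 26.3 and 28.3 CPM in KO hearts, with a wide gap between the groups. Its log2 fold change of 0.98 ± 0.14 shrank to 0.40 ± 0.13 with the trends removed, and its transcript, at 57.9% GC, is in the 25% of genes richest in GC, which starts at 55.0%.

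Both ATPases stayed close to each other. Their FPKM ratio, Ruvbl2 over Ruvbl1, was 1.68 ± 0.442 in WT (SD, n = 5) and 1.87 ± 0.346 in KO hearts (SD, n = 4), and the ranges, 1.20 to 2.37 and 1.54 to 2.35, overlapped. Ruvbl1 was at 4.67 ± 2.02 FPKM in WT and 11.4 ± 1.41 in KO, and Ruvbl2 at 7.15 ± 1.62 and 21.0 ± 1.52. A processed pseudogene, Gm5837, is 99.27% identical to Ruvbl1 over 1369 bases and has no row in the count table, so the Ruvbl1 values are uncertain where reads could match either copy.

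The subunits that connect clients and HSP90 were less alike. Pih1d1, the client-binding subunit (chromosome 7, 45154303 to 45160065, plus strand), had 9.64, 11.4, 8, 8.15 and 8.71 CPM in WT and 14.6, 20.2, 17.2 and 21.0 CPM in KO hearts. The groups did not overlap. Its log2 fold change was 1.01 ± 0.16, but 0.28 ± 0.13 with the trends removed, and its transcript was the richest in GC of the 5, at 58.6%. Rpap3, the HSP90-binding subunit (chromosome 15, 97675097 to 97705825, minus strand), had 10.4, 9.37, 10.1, 11.2 and 7.89 CPM in WT and 10.9, 12.2, 11.5 and 14.7 CPM in KO hearts. It was the member whose CPM overlapped between groups, with WT heart 4 above KO heart 1, and its log2 fold change was 0.31 ± 0.16, or 0.49 ± 0.16 with the trends removed. Rpap3 has processed pseudogenes too, Gm5697 with 92.3% identity over 1696 bases and Rpap3-ps2 with 90.9% over 242 bases.

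In FPKM the 4 R2TP subunits were all higher in every KO heart than in any WT heart. Pih1d1 was at 8.62 ± 1.83 in WT and 26.4 ± 3.09 in KO, and Rpap3 at 3.96 ± 1.26 and 7.23 ± 0.621. The FPKM table as a whole was shifted, with a median log2 difference of 0.44 over 12637 genes, and 41.3% of those genes had every KO heart above every WT heart while 4.23% had every KO heart below. After each heart was centred on its median, the differences were 0.71 for Ruvbl1, 0.96 for Ruvbl2, 1.03 for Pih1d1 and 0.27 for Rpap3, and -3.28 for Wdr92. Of the 5 members, 4 passed the edgeR test (3 higher, 1 lower) and 4 did not overlap between groups in CPM. Among all tested genes 51.4% were called, 22.3% had every KO heart above and 19.3% every KO heart below all WT hearts in CPM, and 41.6% did not overlap. With the trends removed 18.6% of 12510 genes were called higher and 19.4% lower, and in the FPKM table limma called 47.2% higher and 6.09% lower. The members were chosen on this contrast, so nothing is read from those counts.

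Set against its partners within the same heart, Wdr92 changed rank. Per transcript length it was the most abundant of the 5 members in each WT heart. It stood at 11.5, 6.77, 13.7, 19.9 and 12.1 times the median FPKM of the 4 subunits in WT hearts 1 to 5, and at 0.306, 0.739, 0.649 and 0.752 times in KO hearts 1 to 4. The means were 12.8 ± 4.75 (SD, n = 5) and 0.612 ± 0.209 (SD, n = 4), and the smallest WT ratio was above the largest KO ratio. Within a heart such a ratio does not depend on the scaling of the library, but GC content and length still differ between the genes. Against Rpap3 alone, the ratio ran from 10.7 to 27.7 in WT hearts and from 0.758 to 1.61 in KO hearts. Against Pih1d1 it ran from 3.84 to 16.4 and from 0.230 to 0.432. Pih1d1 itself was higher relative to Rpap3 in KO hearts, with an FPKM ratio of 2.26 ± 0.477 in WT and 3.65 ± 0.317 in KO, with no overlap between groups. In counts with GC and length trends removed that direction was not kept. Pih1d1 then stood at 0.28 ± 0.13 and Rpap3 at 0.49 ± 0.16 on the log2 scale. In bulk tissue, fewer cells of a type and less RNA per cell cannot be told apart.

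**Figure D2:**
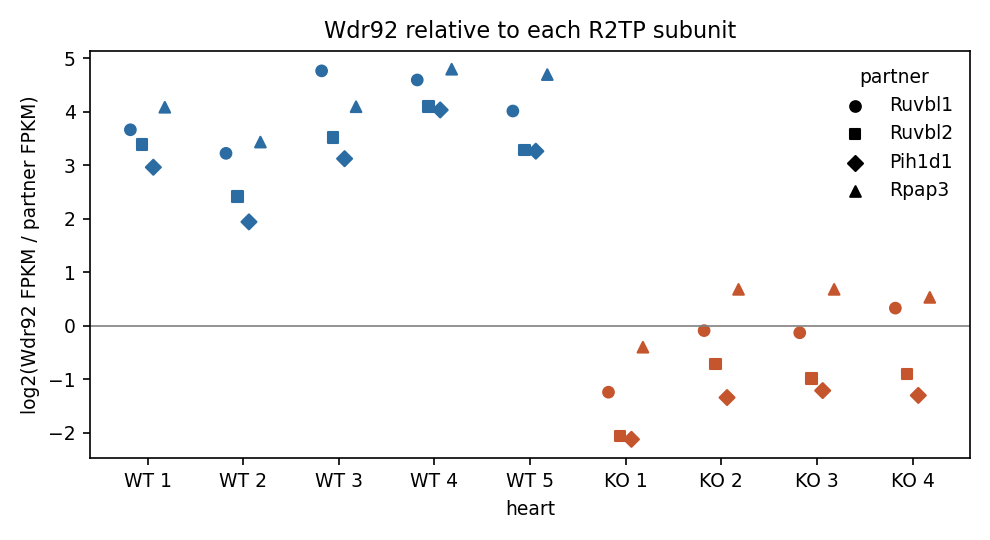
Each symbol is the log2 ratio of Wdr92 FPKM to the FPKM of 1 R2TP subunit in 1 heart, with WT hearts in blue and KO hearts in orange, and 0 marks equal levels. All 20 WT ratios lie between 1.94 and 4.79, and all 16 KO ratios lie between -2.12 and 0.68.

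Neighbours of Wdr92 did not show a fall of that size. Pno1, the divergent neighbour whose upstream window is printed above, had 9.02 CPM at most and 6.6 at least in WT hearts, and 3.84 to 7.36 CPM in KO hearts. Its log2 fold change was -0.42 ± 0.21 (edgeR adjusted p = 0.104), and 0.11 with the trends removed. Without KO heart 1 Pno1 passed at -0.56 (edgeR adjusted p = 0.0397), and limma-voom called it at -0.66 (adjusted p = 0.00797). Ppp3r1, the calcineurin B subunit upstream on the same strand, was at -0.02 ± 0.19 (adjusted p = 0.941), and it passed as higher at 0.65 with the trends removed (adjusted p = 0.0286). Downstream, C1d, a cofactor of the RNA exosome, was at -0.53 ± 0.27 (adjusted p = 0.110), or 0.34 with the trends removed, and it passed as lower without KO heart 1 (-0.83, adjusted p = 0.0136). Farther upstream, Cnrip1 was at -0.43 (adjusted p = 0.212) and the immune-cell gene Plek at 0.40 (adjusted p = 0.213), and Plek passed as higher with the trends removed (1.01, adjusted p = 0.00522).

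A noncoding Wdr92 transcript in GENCODE vM21 starts inside Ppp3r1, at 17182107, and shares 462 of 2497 Wdr92 exon bases with it on the same strand. Wdr92 and Pno1 share 33 exon bases on opposite strands. Ppp3r1 lay between 5.92 and 9.95 CPM in all 9 hearts, far below the WT level of Wdr92. The other members overlap genes as well. Ruvbl2 shares 310 of 2902 exon bases with Gys1, muscle glycogen synthase, on the opposite strand, and 138 with Lhb, which had 0 reads. Gys1 was at 0.02 ± 0.12 (adjusted p = 0.903), but fell at -0.40 with the trends removed (adjusted p = 0.00604). Pih1d1 shares 149 of 2020 exon bases with Aldh16a1 on the opposite strand. Aldh16a1, an aldehyde dehydrogenase family member, rose from 3.33 ± 1.34 to 10.9 ± 1.94 CPM, with every KO heart above every WT heart (1.69 ± 0.24 on the log2 scale, edgeR adjusted p = 5.74e-05; 1.14 with the trends removed). Its part in the Pih1d1 counts was not tested.

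**Figure D3:**
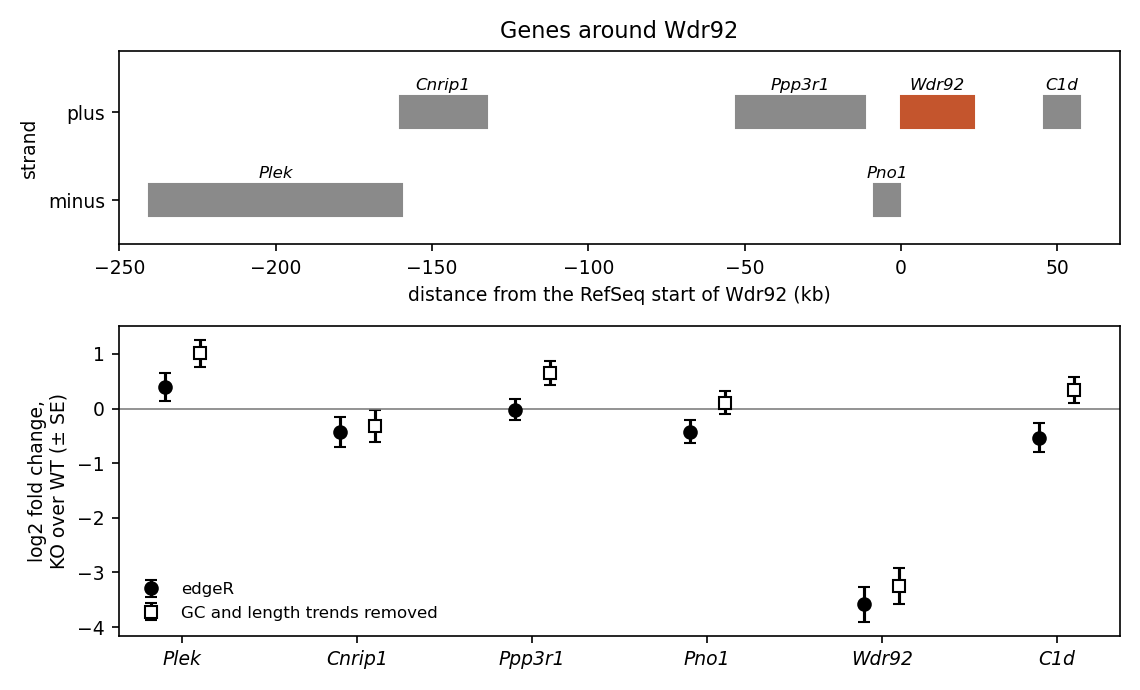
The upper panel places the genes around Wdr92 by strand and distance in kb from its RefSeq start, and the lower panel gives each gene's log2 fold change (KO over WT, ± SE) by edgeR, as deposited (filled) and with GC and length trends removed (open). Wdr92 lies at -3.58 and -3.24, while the 5 neighbours lie between -0.53 and 1.01.

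The prefoldin-like module binds R2TP together with Wdr92. Of its 6 genes, all tested, 3 rose and 1 fell, with a median log2 fold change of 0.69 beside -0.01 over all genes (0.48 beside 0 with GC and length trends removed). In this and the following lists the counts stand beside 26.2% of all tested genes called higher and 25.2% called lower, or 18.6% and 19.4% with the trends removed, and no list was tested against other genes. Statements that groups did not overlap refer to CPM. In the FPKM table, whose median was shifted by 0.44, the groups overlapped for Chordc1, Atr, Nop10, Nop58, Epc1, Dynlrb1, Dnalc1 and Xiap, and of these only Nop10 passed limma there as lower. In the prefoldin-like module, with the trends removed the counts were again 3 higher and 1 lower, with Uri1 in place of Polr2e. Uxt, a prefoldin-like subunit, fell from 11.6 ± 1.98 to 2.69 ± 1.35 CPM, with every KO heart below every WT heart (-2.07 ± 0.27 on the log2 scale, edgeR adjusted p = 3.64e-05; -2.08 with the trends removed). Pdrg1, another subunit, rose from 29.8 ± 5.28 to 62.7 ± 4.57 CPM (1.05 ± 0.14, adjusted p = 3.21e-05), and H2-Ke2, which encodes prefoldin subunit 6, rose by 1.14 ± 0.16 (adjusted p = 6.12e-05). For both, every KO heart was above every WT heart, and with the trends removed they stood at 0.72 and 0.63. Uri1, the scaffold of the module, stood at 0.32 ± 0.17 and missed the threshold (adjusted p = 0.138), but passed with the trends removed (0.70, adjusted p = 0.00446). Uri1 and Polr2e (1.06 ± 0.15; 0.32 with the trends removed) fall outside the rule for named genes and were chosen after their values were seen.

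Dynein arm preassembly is the process in which WDR92 is best known, and most genes listed for it were sparse in heart. Dnaaf3 and Heatr2 were not, at WT means of 14.3 and 16.9 CPM beside 8.01 to 12.9 CPM for the 4 R2TP subunits. Of 13 listed genes 6 passed the expression filter. Of those, 1 rose and 0 fell at a median of 0.22, against 1 and 2 at a median of -0.16 with the trends removed. The gene that rose, Ccdc114, encodes a docking protein of outer dynein arms and not a preassembly factor in the strict sense. The other 5 tested, Dnaaf2, Dnaaf3, Heatr2, Dyx1c1 and Spag1, were not called, with log2 fold changes from -0.52 to 0.40, but Dnaaf3 and Heatr2 passed as lower with the trends removed (-0.60 and -0.44, edgeR adjusted p = 0.00705 and 0.0309). These 5 were named after their values were seen. The 7 that did not pass, among them Dnaaf1, Lrrc6 and Zmynd10, had at most 8 reads in any heart. Ccdc114 rose from 0.665 ± 0.255 to 1.55 ± 0.612 CPM (1.20 ± 0.39 on the log2 scale, edgeR adjusted p = 0.0183), with as few as 2 reads in WT hearts 2 and 5. Its call was lost without KO heart 4 (0.95, adjusted p = 0.0645), with limma-voom (0.90, adjusted p = 0.061) and with the replicate number as a block (1.07, adjusted p = 0.0799).

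Of 18 axonemal dynein chains 7 were tested, and 2 rose and 1 fell at a median of 0.32 (1 and 0 at 0.05 with the trends removed). Dnahc8, an outer-arm heavy chain, rose from 0.564 ± 0.288 to 3.42 ± 0.489 CPM, from 1 to 14 reads in WT hearts to 45 to 80 in KO hearts (2.70 ± 0.34, adjusted p = 2.69e-05; 2.98 with the trends removed). The light chains Dnalc4 (0.87 ± 0.18, adjusted p = 0.00111) and Dnalc1 (-0.55 ± 0.18, adjusted p = 0.0167) were called in opposite directions, and both lost their call with the trends removed, at 0.28 and -0.04 (adjusted p = 0.161 and 0.983). Dnalc1 also lost it without KO heart 2 (adjusted p = 0.0563). Without that heart 0 axonemal chains were lower, and without WT heart 5 there were 2.

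Cytoplasmic dynein, the microtubule motor of intracellular transport, had 11 of 13 chains tested, of which 2 rose and 1 fell at a median of -0.03 (4 and 2 at 0.26 with the trends removed). The heavy chain Dync1h1 rose from 383 ± 30.2 to 524 ± 51.1 CPM (0.45 ± 0.12, edgeR adjusted p = 0.00542; 0.26 with the trends removed). The light chain Dynll1 rose by 0.72 ± 0.14 (adjusted p = 0.000811), and Dynlrb1, a roadblock-type light chain, fell from 115 ± 4.40 to 67.9 ± 4.39 CPM (-0.76 ± 0.11, adjusted p = 6.31e-05; -1.51 with the trends removed). The groups of each of the 3 did not overlap in CPM. In FPKM Dynlrb1 overlapped and was at -0.17 (limma adjusted p = 0.487).

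HSP90 and its co-chaperones were all measured. Of 20 genes 10 rose and 5 fell, with a median of 0.21, against 7 and 2 at a median of 0.06 with the trends removed. Unc45b, the myosin chaperone of striated muscle, rose from 116 ± 8.58 to 231 ± 38.2 CPM (0.99 ± 0.13 on the log2 scale, edgeR adjusted p = 3.56e-05; 0.64 with the trends removed). Chordc1, an HSP90 cofactor, fell from 15.7 ± 1.80 to 6.94 ± 1.83 CPM (-1.19 ± 0.18, adjusted p = 0.000123), but with the trends removed it stood at -0.29, short of the threshold (adjusted p = 0.174). In neither gene did the groups overlap in CPM. In FPKM Chordc1 overlapped and was at -0.52 (limma adjusted p = 0.0699).

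Among 9 genes of PIKK kinases and the TTT complex, which hands these kinases to R2TP, 3 rose and 2 fell at a median of -0.32, and with the trends removed 0 rose and 1 fell at a median of 0.16, so the median turned direction. Mtor rose from 71.2 ± 3.66 to 96.0 ± 3.49 CPM (0.43 ± 0.10 on the log2 scale, edgeR adjusted p = 0.00329), Telo2, a TTT subunit, rose by 1.06 ± 0.25 (adjusted p = 0.00251), and the DNA damage kinase Atr fell (-1.13 ± 0.26, adjusted p = 0.0019), each without overlap between groups in CPM. With the trends removed these 3 were at 0.17, 0.48 and -0.42 and none passed (adjusted p = 0.155, 0.124 and 0.122). The number of lower genes was 1 without WT heart 1 or 4 or KO heart 2, 3 or 4, and 4 without KO heart 1.

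RNA polymerase subunits and assembly factors had 5 of 23 higher and 4 lower at a median of 0.12 (6 and 5 at 0.04 with the trends removed). Polr2a had 204, 1580, 1160, 336 and 518 CPM in WT hearts 1 to 5 and 73.5, 77.0, 81.8 and 69.8 CPM in KO hearts (-3.32 ± 0.47 on the log2 scale, edgeR adjusted p = 6.91e-05). The groups did not overlap, and the shallow WT hearts 2 and 3 were highest. In reads the WT hearts were nearly level, at 4545, 4541, 3924, 4780 and 4459, although their totals differed from 4415183 to 20827699. Without those 2 hearts its log2 fold change was -2.23. Why the reads did not follow depth was not tested. The small shared subunits Polr2l and Polr2f rose, by 1.51 ± 0.16 (adjusted p = 8.53e-06; 1.36 with the trends removed) and 1.44 ± 0.17 (adjusted p = 1.74e-05; 0.56 with the trends removed), with every KO heart above every WT heart.

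Proteins of small nucleolar particles had 3 of 13 higher and 5 lower at a median of 0.05, against 1 and 2 at a median of -0.03 with the trends removed and 1 higher without KO heart 2. Naf1, an assembly factor of H/ACA particles, fell from 11.4 ± 6.23 to 1.52 ± 0.233 CPM (-2.77 ± 0.36 on the log2 scale, edgeR adjusted p = 3.54e-05; -2.55 with the trends removed). The core H/ACA protein Nop10 fell by 1.40 ± 0.30 on that scale (adjusted p = 0.00137), and the box C/D protein Nop58 fell by 1.02 ± 0.24 (adjusted p = 0.00277), although Nop58 stood at -0.23 with the trends removed (adjusted p = 0.499). In CPM all KO hearts were below all WT hearts for each of the 3. Naf1 and Nop58, like Polr2a, were highest in the shallow WT hearts 2 and 3. Naf1 had 21.2 and 13 CPM there, beside 4.62 to 9.52 CPM in the other WT hearts. Nop58 had 22.5 and 18.4 CPM there, beside 9.62 to 14.3 CPM. The reason was not tested. In FPKM the groups of Nop10 and Nop58 overlapped, and Nop58 was at -0.38 (limma adjusted p = 0.0601).

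Of 11 genes of the spliceosomal U5 and U4 particles 5 rose and 0 fell at a median of 0.29 (3 and 0 at 0.06 with the trends removed). The assembly factors Tssc4 (1.42 ± 0.24 on the log2 scale, edgeR adjusted p = 0.000274) and Aar2 (0.81 ± 0.16, adjusted p = 0.000658) rose. Znhit2, which links R2TP to U5 particles, rose from 1.20 ± 0.751 to 4.78 ± 0.6 CPM (1.68 ± 0.30, adjusted p = 0.000315), but its call was lost with the trends removed (0.70, adjusted p = 0.0524). Tssc4 and Aar2 then stood at 0.71 and 0.58. All KO hearts were above all WT hearts for each of the 3.

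RUVBL1 and RUVBL2 also belong to the chromatin remodellers INO80, SRCAP and TIP60. Of 27 tested genes of those complexes 8 rose and 11 fell at a median of -0.09, and with the trends removed 5 rose and 6 fell at a median of -0.05. Mcrs1, an INO80 subunit, rose from 15.1 ± 3.02 to 38.3 ± 6.14 CPM (1.30 ± 0.16 on the log2 scale, edgeR adjusted p = 2.39e-05; 0.72 with the trends removed), and Ino80b rose by 1.41 ± 0.23 (adjusted p = 0.000158; 0.64 with the trends removed). Epc1, a TIP60 subunit, fell from 32.8 ± 3.12 to 17.2 ± 1.82 CPM (-0.94 ± 0.13, adjusted p = 5.87e-05; -0.83 with the trends removed). The groups of these 3 did not overlap in CPM. In FPKM Epc1 overlapped and was at -0.12 (limma adjusted p = 0.556). Without KO heart 2 the number of lower genes was 7.

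WDR92 was first described as a modulator of apoptosis, and the intrinsic pathway was listed for that reason. Of its 14 genes 3 rose and 3 fell at a median of -0.05 (3 and 2 at 0.24 with the trends removed). The pro-apoptotic Bax rose from 5.23 ± 1.41 to 14.8 ± 1.66 CPM (1.47 ± 0.18 on the log2 scale, edgeR adjusted p = 2.53e-05), and Bad from 3.20 ± 1.19 to 12.3 ± 3.37 CPM (1.79 ± 0.24, adjusted p = 5.01e-05). Xiap, an inhibitor of caspases, fell (-0.89 ± 0.17, adjusted p = 0.000556). The other called genes, named after their values were seen, were the pro-apoptotic Bak1 (-0.80 ± 0.16, adjusted p = 0.000754) and Apaf1 (-0.84 ± 0.20, adjusted p = 0.00313), which fell, and Casp9 (0.63 ± 0.18, adjusted p = 0.00862), which rose. Pro-apoptotic genes were thus called in both directions. With the trends removed Bad stood at 1.22 and Bak1 at -1.33 (adjusted p = 2.92e-05), while Bax (0.48, adjusted p = 0.0542), Apaf1 (-0.44, adjusted p = 0.0623), Casp9 (0.36, adjusted p = 0.0966) and Xiap (0.00, adjusted p = 0.991) no longer passed. Groups did not overlap in CPM for Bax, Bad or Xiap, but Xiap overlapped in FPKM (-0.20, limma adjusted p = 0.43).

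**Figure D4:**
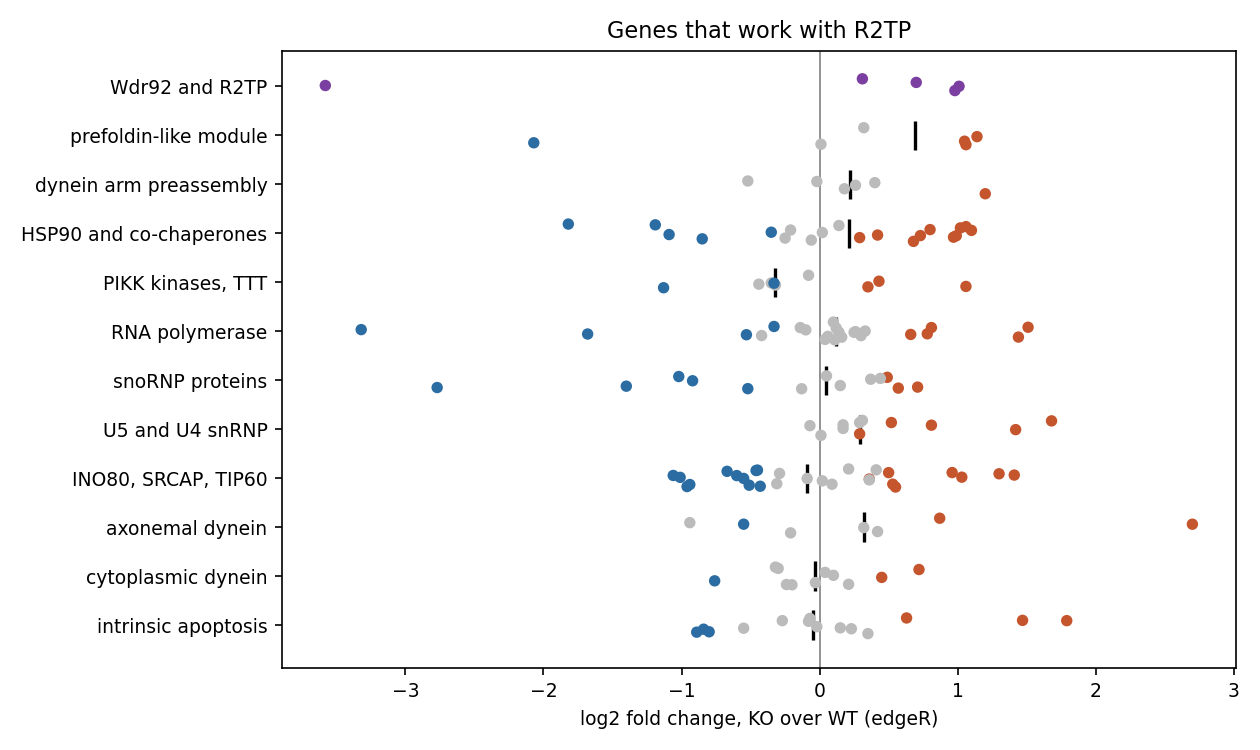
Each point is 1 gene's log2 fold change (KO over WT, edgeR), by list, with called genes in orange (higher) and blue (lower), uncalled genes in grey and the 5 members in purple, for which no call is shown, and the black ticks are list medians. The largest falls are those of Wdr92 (-3.58), Polr2a (-3.32), Naf1 (-2.77) and Uxt (-2.07), and the largest rise is that of Dnahc8 (2.70).

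The transcripts whose log2 CPM most resembled that of Wdr92 over the 9 hearts were the proteasome activator Psme1 (Pearson r 0.99), Rwdd1 (0.98), the phosphatase Cdc14b (0.97), the zinc finger protein Zfp207 (0.96) and the reticulon Rtn3 (0.96). These coefficients describe hearts that share group and library, and the groups form separate clusters. The falls of the 5 were smaller than that of Wdr92, from -0.54 ± 0.11 for Psme1 to -1.31 ± 0.12 for Rwdd1. With the mean of each group subtracted, the closest were S100a10 (0.97), Kctd11 (0.95), the complex I subunit Ndufb9 (0.95), Tmem242 (0.93) and Nub1 (0.93). On that measure the R2TP subunits had coefficients of 0.16 (Ruvbl1), 0.14 (Ruvbl2), 0.01 (Pih1d1) and 0.50 (Rpap3). The closest genes were picked as the highest of 12639 over 9 hearts, so coefficients that high follow in part from the choice. Of the second 5, S100a10 (1.15 ± 0.14), Tmem242 (1.04 ± 0.13) and Kctd11 (0.57 ± 0.19) rose, opposite to Wdr92. Kctd11 lost its call with the trends removed (0.14). Nub1 (-0.09) and Ndufb9 (0.24) were not called, but Ndufb9 passed as lower with the trends removed (-0.43).

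Summed cell markers did not overlap between groups for the heart muscle, atrial and endothelial lists, and overlapped for the other lists. The heart muscle sum, given above, was higher in every KO heart than in any WT heart, although of its 6 genes 2 rose and 1 fell. Atrial markers summed to 23.7 to 43.4 CPM in WT and 134 to 478 CPM in KO hearts over 4 genes. Of these genes 2 were tested, and 1 rose. In all hearts together the most abundant of the 4 had 20259 reads, while Sln had 7. The atrial sum thus weighs the genes very unevenly, and it does not show a shift of the 4 genes as a set. Endothelial markers summed to 641 to 780 and 512 to 598 CPM, with 0 of 5 higher and 2 lower. Fibroblast markers summed to 415 to 543 and 401 to 582 CPM, with 2 of 5 higher and 2 lower. Smooth muscle and pericyte markers summed to 508 to 718 and 633 to 883 CPM, with 2 of 5 higher and 1 lower. Both sums overlapped between groups. Immune markers summed to 40.9 to 61.3 and 45.2 to 68.3 CPM, with 1 of 4 higher and 2 lower, and erythroid markers to 10.7 to 20.5 and 7.87 to 19.4 CPM, with Hba-a1, Hba-a2 and Hbb-b1 at 0 reads and the 1 tested marker not called. Over all tested genes 26.2% were called higher and 25.2% lower. The part of cell composition in the members' values was not tested.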

How the data were processed

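The authors deposited read counts per gene and FPKM values (fragments per kilobase of transcript, scaled to depth) for 9 hearts. The build was mm10, and TopHat2 2.0.10, TopHat, Bowtie2, Cufflinks 2.1, HTSeq, edgeR and DESeq were used in roles left unsaid, per the submitters' processing notes. Annotation and strand setting: not given in the sources used here.

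Counts were fitted across all genes with edgeR 4.0.16 in R 4.3.3 (TMM, default filter of at least 10 reads and 15 in total, quasi-likelihood F test, Benjamini-Hochberg adjustment, threshold 0.05) and log2(FPKM + 1) with limma-trend (limma 3.58.1, mean FPKM of at least 0.5), which understates changes of low genes. "Called" means past that threshold, and "rose" and "fell" are used in that sense outside the 5 members. GC and length trends were removed with per-heart lowess fits (span 0.3) to the log2 deviation, entered as offsets. This covered 99.0% of tested genes and also removes biology that follows GC content or length. Other alternatives were other normalisation factors, other filters and pseudocounts, DESeq2 1.42.0, limma-voom, a replicate block, hearts left out and FPKM centred on each heart's median. The procedures were tested on simulated counts with few changed genes and no GC trend. That test does not cover the widespread differences that follow GC content here. Nothing in the labels says more on the origin of the hearts than 1 per library, so p-values measure the spread between these samples. No 2 hearts held identical values.

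Members and lists were chosen with earlier results of these data known. Named genes were the members, up to 3 called genes of smallest p per list, neighbours and overlapping genes, and the 5 closest to Wdr92 by each correlation. The targeted transcript, and some genes that the rule took, are not reported here. Exon overlaps come from GENCODE vM21 and sequences from RefSeq GRCm38.p6. All 5 members matched the promoter table. Copies were sought at 90% identity over 50 bases. A part of the Ruvbl2 upstream window is transcribed in some annotated isoforms, so it is not printed.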

Additional observations from a re-analysis of the deposited data

Results flagged for a closer look

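Among the 4 KO hearts, 1 FPKM value stood far from the other 3 for each of 3 members, measured as its gap to the nearest value over the whole range of the group, which came out above Dixon's critical value for 4 samples. KO heart 1 was low for Wdr92, at 5.20 beside 10.9 to 11.8 (0.869). KO heart 4 was low for Ruvbl1, at 9.33 beside 11.9 to 12.3 (0.880). KO heart 2 was low for Ruvbl2, at 18.7 beside 21.6 to 22.0 (0.899). It was a different heart each time. Chance alone flags about 1 group in 20, and whether these 3 exceed that rate was not tested. The screen covered CPM and FPKM of every member in WT and in KO hearts, and no CPM value was flagged.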

How the results depend on the processing

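With GC and length trends removed, Ruvbl2 stood at 0.40 and Pih1d1 at 0.28 on the log2 scale, further from the reported values than the spread between hearts. With FPKM centred on each heart's median, Ruvbl1 was at 0.71, Ruvbl2 at 0.96, Pih1d1 at 1.03 and Rpap3 at 0.27, and 3214 genes were called higher and 3593 lower, against 5961 and 769 uncentred. Ppp3r1 (0.65), Ndufb9 (-0.43) and Gys1 (-0.40) turned direction with the trends removed. By construction that setting takes out differences that follow GC content or length. Each member kept its direction under the settings run, 19 for counts and 15 for FPKM. Wdr92 ran from -3.84 to -3.24 in counts, and from -3.76 to -3.36 with single hearts left out. Left-out ranges were 0.58 to 0.79 for Ruvbl1, 0.92 to 1.03 for Ruvbl2, 0.94 to 1.10 for Pih1d1 and 0.22 to 0.37 for Rpap3. Genes called ran from 4762 to 7350 in counts. Between hearts with the same number, deviations from the group means had correlations of -0.11, 0.04, -0.06 and -0.26. The hearts numbered 2 were each other's closest match, but so were WT heart 1 and KO heart 4, and WT heart 4 and KO heart 1. Such correlations cannot show whether hearts were paired by origin or handling. With the replicate number as a block 5030 genes were called in counts and 5306 in FPKM, against 6503 and 6730. In the block fit dynein preassembly factors had 0 higher, RNA polymerase genes 2 lower, PIKK and TTT genes 1 lower, chromatin remodellers 5 higher and 5 lower and axonemal chains 0 lower.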
